A study of Mus musculus with 34 samples.

Results

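Potassium channel genes were followed through the hippocampus and the cortical GFAP+ nuclei of aged mice. They were taken as all gene symbols beginning with Kcn, apart from Kcnj10, Kcnj13 and Kcne2, a rule that goes by name, though it was set with earlier results of these data known. Of 97 such symbols among the 23951 genes of the files, 3 were left out and 94 remained, in 21 subfamilies named by their shared stem (Kcna, Kcnab and so on). The rule goes by symbol alone, so 3 non-coding transcripts named after a channel gene (Kcnq1ot1, Kcnd3os and Kcnmb4os1) are among them. RNA was sequenced from the hippocampus of 4 control mice (Hdac1 f/f), 5 Hdac1 cKO mice (Hdac1 f/f; Nestin-Cre), 6 5XFAD mice (Hdac1 f/f; 5XFAD) and 5 compound mice (Hdac1 f/f; Nestin-Cre; 5XFAD), and from sorted cortical GFAP+ nuclei of 3 control mice and 4 with the Hdac1 deletion. The floxed Hdac1 allele is thus shared by all 6 groups. Nestin-Cre removes Hdac1, a histone deacetylase gene, from neurons and astrocytes but not from microglia, and 5XFAD is a transgenic model of Alzheimer's disease whose human transgenes are driven in neurons by the Thy1 promoter. Control and Hdac1 cKO mice of the hippocampal set were 13 to 14 months old and all others 13 months, and each library came from 1 mouse.

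Potassium channels let potassium leave the cell and so set the resting potential, end each action potential and space the next. The pore is built from voltage-gated subunits (Kcna, Kcnb, Kcnc, Kcnd, Kcnh, Kcnq), calcium- or sodium-activated subunits (Kcnma, Kcnn, Kcnt), inward rectifiers (Kcnj) or tandem-pore leak subunits (Kcnk). Other members form no pore alone and change the gating or traffic of one that does: Kcnab and Kcne subunits, the calcium-binding Kcnip proteins of A-type channels, the Kcnmb subunits of BK channels and the electrically silent Kcnf, Kcng, Kcns and Kcnv. Neurons express most of these genes, while astrocytes are known for a large passive potassium conductance that clears potassium released by firing neurons.

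Levels are FPKM as deposited, which are fragment numbers scaled to transcript length and to the fragments mapped in the library. The hippocampal libraries sample the 3′ ends of transcripts while the nuclei libraries cover whole transcripts, so levels in the 2 materials are set side by side and not tested. Sequencing depth, read from the size of the smallest FPKM steps and set to 1 in control 1 of each material, ran from 0.754 to 2.35 in the hippocampus and from 0.869 to 1.26 in the nuclei. Hdac1 was at 5.91 to 10.7 FPKM in control and 2.36 to 3.03 FPKM in Hdac1 cKO hippocampus, but at 9.91 to 22.3 and 5.80 to 11.5 FPKM in the nuclei, where the groups overlapped. Astrocyte markers summed to between 3288 and 3996 FPKM in control nuclei and neuron markers to between 290 and 417 FPKM. The hippocampal groups differed in other cell types. All 15 markers of choroid plexus, the epithelium that secretes cerebrospinal fluid, were lower in Hdac1 cKO than in control mice; none was at 0, and they summed to 680 FPKM in control 1 and up to 21571 FPKM in other control mice, against 109 to 1738 FPKM in Hdac1 cKO mice. Microglial markers summed to between 378 and 489 FPKM in control, 1052 and 1421 FPKM in 5XFAD, and 1312 and 2654 FPKM in compound mice. In tissue RNA, fewer cells of a type and less RNA per cell cannot be told apart.

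In control hippocampus 17 of the 94 genes had a mean above 10 FPKM and 29 had a mean below 0.5 FPKM. Among the most abundant were Kcnab2 at 57.4 ± 8.66 (SD, n = 4), Kcnk1 at 54.7 ± 1.24, Kcnip2 at 53.5 ± 6.16 and Kcnmb4 at 49.7 ± 5.93 FPKM, and these 4 means lay within their spread of their neighbours in the order. By subfamily, the accessory Kcnip and Kcnab genes summed to 111 and 109 FPKM and the Kcnq genes to 85.2 FPKM, ahead of Kcnk at 71.0 and Kcnmb at 59.9 FPKM. The Kcnq sum includes the non-coding Kcnq1ot1, and its place ahead of Kcnk depends on that transcript. Scaling to transcript length, which overcorrects 3′ libraries when genes are compared, enters this order too. The order also depends on the rule, since Kcnj, at 57.9 FPKM, lacks Kcnj10 and Kcnj13. These had means of 16.5 ± 2.96 and 83.9 ± 58.3 FPKM. All 94 genes together summed to 747 to 759 FPKM in control, 794 to 874 in Hdac1 cKO, 734 to 845 in 5XFAD and 693 to 826 FPKM in compound mice. The Hdac1 cKO mice thus all lay above the control mice, and the 5XFAD and compound mice overlapped both groups. With Kcnj10, Kcnj13 and Kcne2 added the sums were 768 to 948 FPKM in control and 811 to 893 FPKM in Hdac1 cKO mice, which overlapped.

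The GFAP+ nuclei held another mix. Kcnk1, a leak channel subunit, was the most abundant member there at 93.8 ± 17.9 FPKM (SD, n = 3). Kcnip3, which encodes a calcium sensor also known as DREAM, came next by mean at 43.5 ± 5.78 FPKM. Kcna2, at 33.9 to 45.3 FPKM, overlapped it, as did Kcnn2, given below. Kcnj8, the pore of an ATP-sensitive inward rectifier, stood at 29.0 ± 9.94 FPKM in control nuclei and at 1.61 ± 0.395 FPKM in control hippocampus. The 8 markers of pericytes and smooth muscle also summed to more there, 274 to 409 FPKM in control nuclei and 54.1 to 79.9 FPKM in control hippocampus, and their part in the level of Kcnj8 was not tested. Kcnk2, a mechanically gated leak channel, was at 29.2 ± 7.31 against 5.37 ± 0.372 FPKM, and Kcnn2, a small-conductance calcium-activated channel, at 38.9 ± 10.1 against 8.95 ± 0.794 FPKM. The order was the other way round for the A-type channel genes, with Kcnd2 at 5.36 ± 1.26 in nuclei and 41.0 ± 1.22 FPKM in hippocampus and its partner Kcnip4 at 2.89 ± 1.04 and 37.3 ± 2.47 FPKM. Kcnab1 was at 3.59 ± 0.967 against 46.0 ± 7.02 FPKM and Kcnmb4 at 9.13 ± 0.710 against 49.7 ± 5.93 FPKM. At the low end, 63 members were above 0 in every hippocampal library and 69 in every nuclei library, while Kcnk15 and Kcnk16 were at 0 in all 27 libraries.

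**Figure D1:**
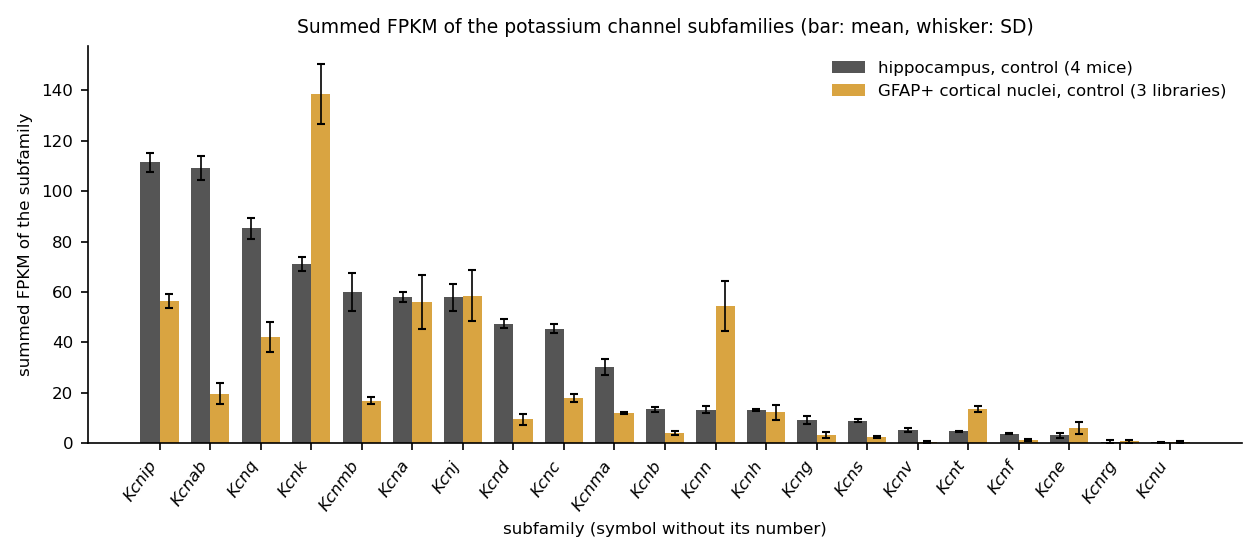
Summed FPKM of each Kcn subfamily in control hippocampus (n = 4 mice) and control GFAP+ cortical nuclei (n = 3 mice), with bars at the mean and error bars of 1 SD. Among these sums, which leave out Kcnj10, Kcnj13 and Kcne2, Kcnip and Kcnab stand highest in hippocampus at 111 and 109 FPKM and Kcnk in nuclei at 138 FPKM.

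The study asks what loss of Hdac1 and the 5XFAD transgenes do to gene expression in the aged brain. Genes that averaged 0.5 FPKM or more in the mice compared were tested with limma on log2(FPKM + 1), and all log2 differences below are on that scale, which understates the change of low genes. A gene counted as a DEG where FPKM + 1 changed 1.5-fold or more and its p before adjustment was under 0.05, which is the unadjusted p. For genes whose groups are given below as not overlapping, the share of all genes so separated was not counted. Of the 94 genes, 69 passed the filter on low values in at least 1 hippocampal comparison, and most differences among them were small.

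In Hdac1 cKO against control mice, 1 of 67 tested members was a DEG (Kcne3), where 3.36% of all genes were. At an unadjusted p under 0.05, 9 members were higher and 1 was lower, against 4.91% of all genes higher and 6.84% lower. This tally leaves out Kcnj13, at 5.35 to 146 FPKM in control and 0 to 8.08 FPKM in Hdac1 cKO mice, and Kcne2, at 1.23 to 29.0 and 0 to 0.787 FPKM. With log2 Ttr, the main choroid plexus transcript, as a covariate, a fit added after the spread of these transcripts had been seen, 5 members in all had an unadjusted p under 0.05. Ttr itself was at 576 to 20146 FPKM in control and 56.5 to 1608 FPKM in Hdac1 cKO mice. This covariate thus overlaps with genotype, and the fit cannot tell the 2 apart. The median log2 difference was 0.12 over the members and -0.00068 over all genes, and 48 of the 67 members lay above 0 against 49.8% of all genes. With no filter on low FPKM the median was 0.05 over 89 members, 55 of them above 0, and with Ttr as a covariate it was 0.18 over the 67. Markers of other cells moved in the same mice. Among them 3 of 12 neuron markers (Rbfox3, Camk2a and Slc17a7, by 0.20 to 0.25) and 3 of 6 markers of CA1, a hippocampal field of pyramidal cells (Wfs1, Mpped1 and Pou3f1, by 0.36 to 0.40), were higher at an unadjusted p under 0.05 and none was lower. Likewise 2 of 10 interneuron, 1 of 7 dentate granule cell and 1 of 5 tested CA3 markers were higher, while 2 of 10 thalamus markers (Tnnt1 -0.91 and Calb2 -0.61) and 2 of 10 oligodendrocyte markers were lower. Of 11 astrocyte markers 1 was higher (Aqp4 0.37) and 1 lower (Gjb6 -0.34), and 1 of 12 microglial markers was higher (Csf1r 0.21). The neuron markers summed to 2321 to 2648 FPKM in control and 2445 to 2714 FPKM in Hdac1 cKO mice, the CA1 markers to 81.2 to 98.7 and 99.4 to 127 FPKM, and none was at 0. Their part in the levels of the channel genes was not tested. The members above 0 came from most subfamilies. Medians were 0.33 over 3 Kcns genes, 0.29 over 3 Kcng genes, 0.24 over 4 Kcnc genes, 0.13 over 4 Kcnip genes and 0.03 over 9 Kcnj genes. The median over 4 Kcnq genes, -0.0075, was the only one below 0. Kcne3, which passed the filter on low values only through the Hdac1 cKO mice, was the only member with a Benjamini-Hochberg adjusted p under 0.05 in limma. Of all genes 0.154% received that call. Those 22 genes became 290, with 2 members among them, without control 1, between 2 and 9 without any other single mouse, and 0 with the replicate block or Ttr as a covariate.

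The Kcne genes encode small single-pass subunits that assemble with voltage-gated pores, and Kcne3 (chr7:107327207-107333374, + strand, mm9) is known as a partner of Kcnq1 in epithelia. Kcne3 was listed at 0 in all 4 control hippocampi. In the Hdac1 cKO mice it was at 2.33, 2.18, 1.96, 1.34 and 0.851 FPKM, in 5XFAD mice it ranged from 0 through a median of 0.790 to 2.01 FPKM, and in compound mice it was at 1.05, 0, 1.33, 1.34 and 0 FPKM. Every Hdac1 cKO mouse thus lay above every control mouse, whereas 5XFAD and compound mice overlapped the control mice at 0. These levels rest on few fragments: the FPKM steps give 0 fragments in control, 30 in the 5 Hdac1 cKO, 18 in the 6 5XFAD and 10 in the 5 compound libraries. Against a floor of 3 fragments over the control group, observed Kcne3 was 6.27-fold higher in Hdac1 cKO, 3.44-fold in 5XFAD and 2.88-fold in compound mice. These ratios allow for counting error in the control group only. They do not allow for counting error in the other groups or for the spread between mice. Without control 2, the deepest control library, they were 3.86, 2.12 and 1.78. Without compound mouse 4, which held 6 of the 10 fragments, the ratio for compound mice was 1.75. In limma Kcne3 rose in Hdac1 cKO mice by 1.42 ± 0.197 (SE) with a Benjamini-Hochberg adjusted p of 0.0262, and the exact two-sided permutation p was 0.0159, the smallest that 5 against 4 mice allow. Since it was at 0 in every control mouse, Kcne3 passed the filter on low values only through the Hdac1 cKO mice, and with no filter its adjusted p was 0.0393. Leaving out 1 mouse at a time moved that adjusted p between 0.00422 and 0.0966. With log2 Ttr as a covariate the difference was 1.07 with a limma adjusted p of 0.657.

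In 5XFAD against control mice Kcne3 differed by 0.79 ± 0.291 (SE; exact permutation p = 0.0476, limma Benjamini-Hochberg adjusted p = 0.352), and in compound against Hdac1 cKO mice by -0.72 ± 0.286 (limma adjusted p = 0.376). The latter lost its unadjusted p under 0.05 on leaving out any 1 of 5 mice, such as compound mouse 5 (-0.55). Kcne3 was at 0 in all 3 control nuclei libraries and in 3 of the 4 Hdac1 cKO nuclei libraries, with 1.67 FPKM in the remaining one. Its promoter, from 250 bases before to 50 after the first of 2 RefSeq starts (chr7:100176420-100176719, + strand, GRCm38.p6), is shown because Kcne3 had the lowest p of all members. In it and in the promoters printed further on, capitals mark the guanine-rich GC box core GGGCGG read on either strand, a motif of the kind the study examined.
Kcne3: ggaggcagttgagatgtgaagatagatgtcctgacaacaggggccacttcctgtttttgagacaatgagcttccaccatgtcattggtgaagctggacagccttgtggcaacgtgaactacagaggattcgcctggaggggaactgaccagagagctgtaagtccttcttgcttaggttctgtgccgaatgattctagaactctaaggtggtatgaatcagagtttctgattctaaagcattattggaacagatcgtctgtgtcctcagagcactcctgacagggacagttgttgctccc
The Kcne3 window holds no GGGCGG core, and its GC content is 48.3%, against a median of 52.7% over the first promoters of 27025 genes in the RefSeq table. The core was present in 35.9% of those promoters and in 34 (50%) of the 68 member promoters that could be matched by name, whose median GC content was 59%. The longer box GGGGCGGGG, which contains the core, was found in 11.6% of all and 16.2% of member promoters.

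Kcne1l (chrX:138739295-138740837, - strand, mm9), another small accessory subunit, followed a different course. It was at 4.44, 2.93, 2.80 and 2.52 FPKM in control mice and at 4.27, 3.69, 2.89, 3.44 and 5.46 FPKM in Hdac1 cKO mice. It ranged from 1.92 through 4.50 to 7.99 FPKM in 5XFAD mice and was at 8.80, 6.21, 3.93, 24.7 and 7.44 FPKM in compound mice. Compound mouse 3 lay among the control mice, the other compound mice lay above all control mice, and compound mouse 4 stood far above the rest. In that mouse the glial genes Gfap, at 176 FPKM, and Kcnj10, at 31.7 FPKM, were also above the other compound mice, which ran from 89.0 to 120 and from 14.8 to 20.6 FPKM, and their part in the level of Kcne1l was not tested. The difference from control mice was 1.20 ± 0.399 (SE; limma, Benjamini-Hochberg adjusted p = 0.295; exact permutation p = 0.0317) and the difference from Hdac1 cKO mice 0.96 ± 0.363 (limma adjusted p = 0.365). The former kept an unadjusted limma p under 0.05 in all 9 refits without 1 mouse, compound mouse 4 included, but lost it with Ttr as a covariate (1.18). The latter lost it without Hdac1 cKO mouse 3 (0.87). Both differences were enlarged by compound mouse 4, the highest of all the mice. Kcne4 and Kcne1, the remaining Kcne members, had means below the filter in the hippocampus.

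**Figure D2:**
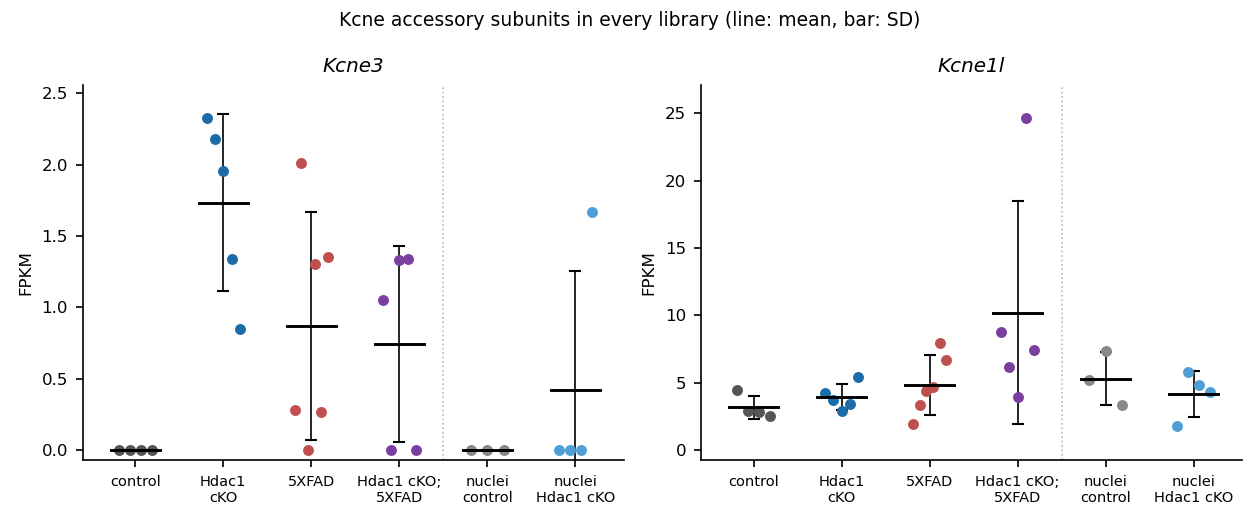
FPKM of Kcne3 and Kcne1l in each mouse of the 4 hippocampal groups and the 2 groups of GFAP+ nuclei, with a line at each group mean and a bar of 1 SD. Kcne3 is at 0 in all 4 control mice, whereas the 5 Hdac1 cKO mice run from 0.851 to 2.33 FPKM, and 1 compound mouse reaches 24.7 FPKM for Kcne1l.

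Kcnmb4 (chr10:115854917-115910934, - strand, mm9) encodes the neuronal beta subunit of BK channels, which makes these channels slower to open. It was at 43.2, 47.3, 57.2 and 51.1 FPKM in control mice and at 64.6, 77.2, 76.0, 62.5 and 57.2 FPKM in Hdac1 cKO mice. It ranged from 50.0 through 63.0 to 76.9 FPKM in 5XFAD mice and was at 43.7, 59.9, 46.2, 59.3 and 55.5 FPKM in compound mice. Control and compound mice covered much the same range, and all Hdac1 cKO mice lay above all control mice, though the nearest pair both read 57.2 FPKM. Kcnmb4 differed from control by 0.43 ± 0.112 (SE) in Hdac1 cKO mice (limma, Benjamini-Hochberg adjusted p = 0.166) and by 0.35 ± 0.121 in 5XFAD mice (limma adjusted p = 0.308). In compound mice it was lower than in Hdac1 cKO mice by 0.35 (limma adjusted p = 0.248) and lower than in 5XFAD mice by 0.27 (limma adjusted p = 0.738).

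The difference between the effects of Hdac1 loss with and without 5XFAD, tested as an interaction over the 20 hippocampal mice, was -0.70 ± 0.171 (SE) for Kcnmb4 (limma, Benjamini-Hochberg adjusted p = 0.297). Its unadjusted p was under 0.05, and stayed so in all 20 refits without 1 mouse. The difference between Hdac1 cKO and control mice was 0.37 without control 1, and 0.44 with Ttr as a covariate, where the unadjusted p was above 0.05. BK channel pore transcripts (Kcnma1) were at 30.4 ± 3.26 FPKM in control (SD, n = 4), 32.9 ± 4.57 in Hdac1 cKO (n = 5), 30.7 ± 2.08 in 5XFAD (n = 6) and 32.2 ± 2.19 FPKM in compound mice (n = 5), with no limma p under 0.05. Kcnmb4 overlaps genes of the opposite strand, and the counting strand is not given in the sources used here, so reads of such neighbours could not be told apart from its own. Its promoter (chr10:116473474-116473773, - strand, GRCm38.p6) is shown with that of Kcnc4 because the interaction p was lowest for these 2 members.
Kcnmb4: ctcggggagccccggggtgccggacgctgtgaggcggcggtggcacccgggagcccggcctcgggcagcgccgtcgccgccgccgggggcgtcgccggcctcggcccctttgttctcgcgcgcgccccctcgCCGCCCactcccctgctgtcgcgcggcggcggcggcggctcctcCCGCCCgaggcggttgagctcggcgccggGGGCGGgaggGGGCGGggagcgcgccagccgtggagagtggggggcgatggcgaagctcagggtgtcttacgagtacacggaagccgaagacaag
It carries 4 GGGCGG cores, 1 of them within the longer box, in a window of 79% GC.

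Kcnc4 encodes a fast voltage-gated subunit of the kind that shortens action potentials (chr3:107241221-107261816, - strand, mm9). It was at 13.0, 12.2, 12.1 and 12.5 FPKM in control and at 14.9, 15.2, 17.4, 16.4 and 15.3 FPKM in Hdac1 cKO mice, with no overlap. It ranged from 12.1 through 15.5 to 20.3 FPKM in 5XFAD mice and was at 11.7, 13.0, 11.4, 14.0 and 14.7 FPKM in compound mice, all of them below every Hdac1 cKO mouse. As for Kcnmb4, all Hdac1 cKO mice lay above all control mice, while 5XFAD and compound mice overlapped the control mice. Both genes were picked for their low interaction p, and their courses were not compared by a test. The differences were 0.32 ± 0.0913 (SE) in Hdac1 cKO (limma, Benjamini-Hochberg adjusted p = 0.203) and 0.31 ± 0.123 in 5XFAD mice (limma adjusted p = 0.393), with an interaction of -0.58 ± 0.152 (limma adjusted p = 0.297). The difference in 5XFAD mice lost its unadjusted p under 0.05 in 3 of 10 refits, as without control 2 (0.30). With Ttr as a covariate the difference in Hdac1 cKO mice was 0.24, with an unadjusted p above 0.05. Of the same subfamily, Kcnc1 was at 20.2 ± 2.43 FPKM in control mice (SD, n = 4), and neither it nor Kcnc2 had a limma p under 0.05.
Kcnc4: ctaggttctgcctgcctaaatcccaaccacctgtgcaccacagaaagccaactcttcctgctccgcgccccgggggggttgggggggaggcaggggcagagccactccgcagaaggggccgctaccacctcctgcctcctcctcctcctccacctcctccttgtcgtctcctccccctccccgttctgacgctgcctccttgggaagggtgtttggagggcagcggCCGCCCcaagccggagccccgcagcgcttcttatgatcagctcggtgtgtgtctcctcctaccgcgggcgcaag
This promoter (chr3:107458849-107459148, - strand, GRCm38.p6) has 1 GGGCGG core and a GC content of 66.7%. A match of letters is no proof of binding, and no data on binding at these sites were analysed here.

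**Figure D3:**
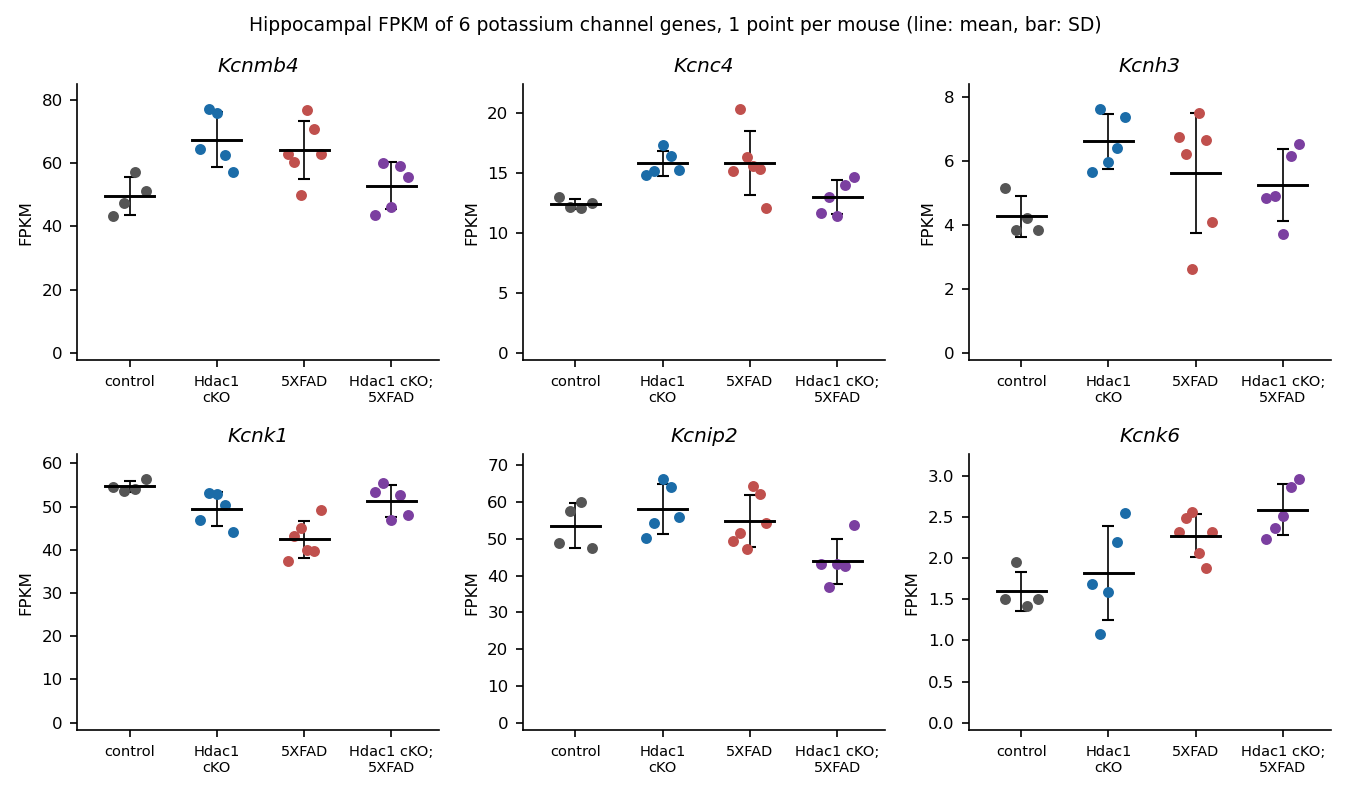
FPKM of Kcnmb4, Kcnc4, Kcnh3, Kcnk1, Kcnip2 and Kcnk6 in each hippocampal mouse, by group, with a line at the group mean and a bar of 1 SD. For Kcnmb4 and Kcnc4 all Hdac1 cKO mice lie above all control mice, while 5XFAD and compound mice overlap the control mice. Kcnk1 is lowest in 5XFAD mice at 37.3 to 49.1 FPKM, and Kcnip2 is lowest in compound mice at 36.8 to 53.7 FPKM.

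Among the other voltage-gated pores, Kcnh3, a forebrain subunit of the ether-a-go-go family (chr15:99055292-99073248, + strand, mm9), was at 5.17, 3.85, 4.21 and 3.84 FPKM in control and at 5.67, 7.63, 5.98, 6.42 and 7.37 FPKM in Hdac1 cKO mice. All 5 Hdac1 cKO mice lay above the control mice, and the difference was 0.53 ± 0.131 (SE; limma, Benjamini-Hochberg adjusted p = 0.153; exact permutation p = 0.0159). Kcnh3 ranged from 2.61 through 6.43 to 7.50 FPKM in 5XFAD mice and was at 4.86, 4.92, 3.73, 6.16 and 6.53 FPKM in compound mice, and both ranges overlapped those of control and Hdac1 cKO mice.

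Kcna1, the most abundant Shaker-type gene, was at 27.4 to 28.3 FPKM in control, 29.4 to 32.1 in Hdac1 cKO, 28.2 to 33.4 in 5XFAD and 23.6 to 34.0 FPKM in compound mice. All 5 Hdac1 cKO mice (exact permutation p = 0.0159) and 5 of 6 5XFAD mice (exact permutation p = 0.0190) lay above all control mice for Kcna1. No Kcna or Kcnb gene reached a limma p under 0.05 in any comparison. Kcnq1ot1, an imprinted non-coding RNA named for its position opposite Kcnq1, was at 15.4 to 18.8 FPKM in control and 11.7 to 16.5 FPKM in compound mice (-0.30 ± 0.120 (SE), limma adjusted p = 0.404).

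A-type channels delay firing, and their pore gene Kcnd2 was at 39.4 to 42.4 FPKM in control, 42.1 to 51.2 in Hdac1 cKO, 34.1 to 45.6 in 5XFAD and 35.8 to 47.6 FPKM in compound mice, with no limma p under 0.05. Its calcium-binding partner Kcnip4 was at 40.7, 34.8, 36.4 and 37.4 FPKM in control and at 46.4, 46.2, 43.6, 46.1 and 42.0 FPKM in Hdac1 cKO mice, without overlap (0.26 ± 0.0803 (SE), limma, Benjamini-Hochberg adjusted p = 0.225). With Ttr as a covariate that difference was 0.09, with an unadjusted p above 0.05. Kcnip2, another partner (chr19:45866329-45890551, - strand, mm9), was at 48.9, 57.5, 60.0 and 47.6 FPKM in control, 50.3, 54.4, 66.3, 64.0 and 55.8 FPKM in Hdac1 cKO, and 43.1, 36.8, 43.1, 42.6 and 53.7 FPKM in compound mice. In 5XFAD mice it ranged from 47.2 through 52.9 to 64.3 FPKM, so that 4 of 5 compound mice lay below every mouse of the other 3 groups. The difference of the compound mice was -0.40 ± 0.110 (SE) from Hdac1 cKO mice (limma adjusted p = 0.119), -0.32 ± 0.111 from 5XFAD mice (limma adjusted p = 0.734) and -0.28 ± 0.117 from control mice (limma adjusted p = 0.418). The last of these lost its unadjusted p under 0.05 in 6 of 9 refits without 1 mouse, as without control 3 (-0.23).

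Kcnab genes encode cytoplasmic subunits that assemble with Shaker-type channels. Kcnab2 was at 50.7, 62.3, 67.1 and 49.5 FPKM in control mice, 59.8 through 71.1 to 79.4 FPKM in 5XFAD mice, and 50.2, 59.4, 54.6, 61.1 and 67.0 FPKM in compound mice. It was higher in 5XFAD than in control mice by 0.30 ± 0.115 (SE; limma, Benjamini-Hochberg adjusted p = 0.370) and lower in compound than in 5XFAD mice by 0.27 (limma adjusted p = 0.734), with groups that overlapped in both cases. The former was 0.24 without control 4 and the latter -0.22 without compound mouse 1, and each then lost its unadjusted p under 0.05. Kcnab3 was lower in 5XFAD mice, at 2.91 through 4.10 to 5.03 FPKM against 4.32 to 6.97 FPKM in control mice (-0.39 ± 0.155 (SE), limma adjusted p = 0.385), and without control 1 it was -0.31 with an unadjusted p above 0.05. Hippocampal Kcnab1 had no limma p under 0.05.

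The silent subunits, which modify Kcnb channels, were low. Kcng1 (chr2:168085617-168107236, - strand, mm9) was at 0.871, 0.729, 0.687 and 1.29 FPKM in control and at 1.83, 1.36, 2.35, 0.933 and 1.17 FPKM in Hdac1 cKO mice. It ranged from 0.548 through 1.39 to 2.29 FPKM in 5XFAD mice and was at 0.609, 0.842, 0, 0.583 and 1.52 FPKM in compound mice, and every group overlapped the next. Its interaction was -0.94 ± 0.319 (SE; limma, Benjamini-Hochberg adjusted p = 0.400), with a p under 0.05 in all 20 refits. In compound against Hdac1 cKO mice Kcng1 was a DEG (-0.60 ± 0.239, limma adjusted p = 0.379). It was no longer one without compound mouse 3 (-0.42), Hdac1 cKO mouse 3 (-0.49) or Hdac1 cKO mouse 1 (-0.55). Nor was it one with Ttr as a covariate (-0.57) or the replicate block (-0.60). Silent subunits with a higher level included Kcng2, at 7.02 ± 1.18 FPKM in control and 8.79 ± 0.939 FPKM in Hdac1 cKO mice (SD, n = 4 and 5, exact permutation p = 0.0476). They also included Kcnv1, at 4.29 to 6.43 FPKM in control and 4.89 to 6.02 FPKM in Hdac1 cKO mice. Kcnf1, another, was at 3.41 to 4.24 FPKM in control mice. Without control 2 the log2 difference of Kcng2 was 0.19, with an unadjusted limma p above 0.05.

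Leak channels carry the resting potassium current. Kcnk1 (chr8:128519002-128554583, + strand, mm9), the most abundant of them in both materials, was at 54.6, 53.7, 54.0 and 56.5 FPKM in control and at 46.9, 53.0, 53.0, 50.5 and 44.2 FPKM in Hdac1 cKO mice. It ranged from 37.3 through 41.6 to 49.1 FPKM in 5XFAD mice and was at 53.3, 55.5, 46.9, 52.7 and 48.0 FPKM in compound mice. All 5 Hdac1 cKO mice and all 6 5XFAD mice lay below all control mice, while the compound mice overlapped every other group. Between Hdac1 cKO and control mice the difference was -0.14 ± 0.0817 (SE; limma, Benjamini-Hochberg adjusted p = 0.532; exact permutation p = 0.0159), with an unadjusted limma p above 0.05. The difference between 5XFAD and control mice was -0.36 ± 0.0922 (SE; limma, Benjamini-Hochberg adjusted p = 0.130; exact permutation p = 0.00952, the smallest that 6 against 4 mice allow), and its unadjusted limma p stayed under 0.05 in all 10 refits without 1 mouse. Compound mice were higher than 5XFAD mice by 0.27 ± 0.0909 (limma adjusted p = 0.718), and the interaction was 0.42 ± 0.117 (limma adjusted p = 0.311). Kcnk1 was the only member with a positive interaction at a limma p under 0.05.

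Kcnk6, a low leak channel gene, was at 1.5, 1.95, 1.42 and 1.51 FPKM in control mice and at 1.68, 1.08, 1.59, 2.20 and 2.55 FPKM in Hdac1 cKO mice. It ranged from 1.87 through 2.32 to 2.56 FPKM in 5XFAD mice and was at 2.24, 2.37, 2.51, 2.86 and 2.96 FPKM in compound mice, all above every control mouse. The differences from control were 0.33 ± 0.138 (SE) in 5XFAD (limma, Benjamini-Hochberg adjusted p = 0.410) and 0.47 ± 0.153 in compound mice (limma adjusted p = 0.260). Kcnk6 also differed between compound and Hdac1 cKO mice by 0.37 ± 0.164 (limma adjusted p = 0.452), and its unadjusted p under 0.05 was lost in 6 of 10 refits, as without Hdac1 cKO mouse 2 (0.26). The difference of the 5XFAD mice was lost in 5 of 10 refits, as without control 3 (0.30). The microglial markers given above were likewise highest in the 5XFAD and compound mice, and their part in the level of Kcnk6 was not tested.

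Kcnk10, a mechanically gated leak channel gene (chr12:99672204-99816150, - strand, mm9), is one for which the study designed primers. The pair lies in exons 4 and 5 of the 7-exon gene model, at chr12:99728235-99728254 and chr12:99678937-99678958 of NCBIM37, the assembly behind mm9.
Kcnk10 forward: gcactgaaggaggcaaaatc
Kcnk10 reverse: tgaagagaatcgtggagatgac
It was at 3.55, 1.44, 2.87 and 3.14 FPKM in control and at 2.10, 1.48, 0.882, 2.26 and 1.46 FPKM in Hdac1 cKO mice. It ranged from 0.535 through 2.10 to 3.43 FPKM in 5XFAD mice and was at 0.552, 2.29, 2.80, 1.41 and 1.21 FPKM in compound mice. The groups overlapped, since control 2 lay at the level of the lower Hdac1 cKO mice. Kcnk10 was the only member lower in Hdac1 cKO mice at an unadjusted limma p under 0.05 (-0.50 ± 0.220 (SE), limma, Benjamini-Hochberg adjusted p = 0.403), and the exact permutation p was 0.0952. The unadjusted p under 0.05 was lost in 6 of 9 refits without 1 mouse, as without control 1 (-0.39). Between 12 and 35 fragments stood behind each of these 9 values. The related Kcnk2 was at 4.86 to 5.74 FPKM in control and 5.94 to 7.51 FPKM in Hdac1 cKO mice, without overlap (0.30 ± 0.113 (SE), limma adjusted p = 0.313; 0.26 and an unadjusted p above 0.05 without control 2).

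In 5XFAD against control mice 1 of 68 tested members was a DEG (Kcne3, which passed the filter only through the 5XFAD mice), against 2.95% of all genes, and 5 members were higher and 4 lower at an unadjusted p under 0.05, against 5.25% and 5.46% of all genes. Without control 1 these 9 members became 5. The higher genes were Kcnmb4, Kcne3, Kcnab2, Kcnc4 and Kcnk6, and the lower ones Kcnk1, Kcnab3, Kcnj9 and Kcnj3. Of the 68 members, 41 lay above 0 in this comparison, against 48.2% of all genes. In the same mice 4 of 10 interneuron markers were lower at an unadjusted p under 0.05 (Gad1 -0.25, Gad2 -0.36, Sst -0.58 and Npy -0.46) and none was higher, with summed levels of 2462 to 3036 FPKM in control and 1981 to 2949 FPKM in 5XFAD mice, while 10 of 12 microglial, 3 of 10 oligodendrocyte, 2 of 11 astrocyte and 1 of 12 neuron markers were higher. Their part in the levels of the channel genes was not tested. Kcnj3 and Kcnj9 encode G protein-gated inward rectifier subunits that hyperpolarise neurons when inhibitory receptors are active. Kcnj9 was at 10.9, 10.7, 11.6 and 13.6 FPKM in control, from 7.86 through 9.30 to 12 FPKM in 5XFAD, and at 7.87, 7.35, 9.03, 7.32 and 11.3 FPKM in compound mice. Its difference from control was -0.28 ± 0.122 (SE) in 5XFAD (limma, Benjamini-Hochberg adjusted p = 0.443; -0.21 and an unadjusted p above 0.05 without control 4) and -0.42 ± 0.143 in compound mice (limma adjusted p = 0.289). Kcnj3 was at 17.0, 9.96, 11.8 and 7.65 FPKM in control and from 7.17 through 8.01 to 10.3 FPKM in 5XFAD mice (-0.40 ± 0.180 (SE), limma adjusted p = 0.446). Control 1 stood above all others for Kcnj3, and without it the difference was -0.21, with an unadjusted limma p above 0.05.

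In compound against control mice 3 of 67 tested members were DEGs, against 4.24% of all genes, and 5 were higher and 3 lower at an unadjusted p under 0.05, against 5.34% and 5.15% of all genes. The DEGs were Kcne1l, described above, Kcnk4, a lipid- and stretch-gated leak channel gene, and Kcnrg, whose product interferes with the assembly of Kcna channels. Kcnk4 was at 0.200, 0.822, 1.89 and 1.64 FPKM in control and 1.26, 1.94, 2.13, 4.29 and 3.94 FPKM in compound mice (0.80 ± 0.316 (SE), limma, Benjamini-Hochberg adjusted p = 0.390), and it was no longer a DEG without control 1 (0.55), control 2 (0.75), compound mouse 4 (0.65) or compound mouse 5 (0.68), nor with Ttr as a covariate (0.74). Kcnrg was at 1.35, 1.14, 0.178 and 0.131 FPKM in control and 1.01, 2.23, 2.04, 0.859 and 1.42 FPKM in compound mice (0.61 ± 0.277 (SE), limma adjusted p = 0.475), and it was no longer a DEG in 10 alternatives, among them 0.44 without control 4, 0.46 without control 3, 0.51, 0.53 and 0.61 without compound mouse 2, 3 or 5, 0.61 with the replicate block and 0.24 with Ttr as a covariate. Both genes overlapped between the groups. Across this comparison 38 of the 67 members lay above 0, against 48.6% of all genes, with a median of 0.03, but the direction turned in 3 refits. It was 24 of 67 (median -0.05) with Ttr as a covariate, 31 of 67 (-0.02) with the replicate number as a block and 32 of 68 (-0.01) without compound mouse 5. The 8 members with an unadjusted p under 0.05 became 5 with Ttr as a covariate or without compound mouse 4. In the same mice 9 of 15 choroid plexus, 2 of 10 interneuron, 2 of 7 dentate granule cell (Prox1 -0.49 and Dsp -0.76), 1 of 10 thalamus (Tnnt1 -1.04) and 1 of 8 endothelial markers (Pecam1 -0.64) were lower at an unadjusted p under 0.05. Higher were 11 of 12 microglial, 4 of 11 astrocyte, 2 of 12 neuron (Tubb3 0.25 and Slc17a7 0.22), 1 of 10 oligodendrocyte and 1 of 5 oligodendrocyte precursor markers. Their part was not tested. Kcnj2, a classical inward rectifier (chr11:110927478-110938135, + strand, mm9), was at 0.936, 1.12, 0.664 and 0.797 FPKM in control, 0.739, 0.801, 1.14, 0.940 and 0.671 FPKM in Hdac1 cKO, and 1.90, 1.36, 1.24, 2.01 and 2.27 FPKM in compound mice. In 5XFAD mice it ranged from 0.914 through 1.34 to 1.52 FPKM. Every compound mouse lay above every control and Hdac1 cKO mouse, by 0.54 ± 0.180 (SE) against control (limma adjusted p = 0.271) and 0.56 ± 0.159 against Hdac1 cKO mice (limma adjusted p = 0.144; exact permutation p = 0.00794, the smallest that 5 against 5 mice allow).

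In compound against Hdac1 cKO mice 3 of 67 members were DEGs (Kcne1l, Kcne3 and Kcng1), against 3.55% of all genes. At an unadjusted p under 0.05, 10 members were lower and 3 higher, against 4.03% of all genes lower and 6.31% higher. Without Hdac1 cKO mouse 3 these 13 members became 8. Among the lower genes were Kcne3, Kcng1, Kcnip2, Kcnip4, Kcnmb4, Kcnc4, Kcnf1, Kcnj6 and Kcnt2, and the higher ones were Kcne1l, Kcnj2 and Kcnk6. The median was -0.10 over the members and -0.00962 over all genes, and 21 of the 67 members lay above 0 against 47.6% of all genes. Some neuronal markers were also lower at an unadjusted p under 0.05. They were 2 of 12 neuron markers (Rbfox3 -0.18 and Camk2a -0.23), 1 of 10 of interneurons (Sst -0.29), 2 of 6 of CA1 (Wfs1 -0.33 and Fibcd1 -0.34) and 3 of 7 of dentate granule cells (Prox1 -0.43, Dsp -0.70 and Calb1 -0.36). None of these lists had a higher one, but 1 of 10 thalamus markers was higher (Tcf7l2 0.47) and none lower. Among glial lists 10 of 12 microglial, 4 of 11 astrocyte, 3 of 10 oligodendrocyte and 1 of 5 oligodendrocyte precursor markers (Tmem100 0.62) were higher and none lower. Lower were 1 of 8 endothelial markers (Pecam1 -0.45) and 1 of 7 tested markers of pericytes and smooth muscle (Pdgfrb -0.44). Their part in the levels of the channel genes was not tested.

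In compound against 5XFAD mice 1 of 67 members was a DEG (Kcnrg), against 1.28% of all genes, and 3 members were higher and 6 lower at an unadjusted p under 0.05, against 3.91% and 2.7% of all genes. Without compound mouse 1 these 9 members became 5. Kcnrg was at 0 through a median of 0.710 to 1.07 FPKM in 5XFAD mice, and 3 of the 5 compound mice lay above them (0.61 ± 0.215 (SE), limma, Benjamini-Hochberg adjusted p = 0.734; 0.51 without compound mouse 2, below the fold of a DEG). Kcnn2 was at 7.36 through 7.72 to 10.2 FPKM in 5XFAD and at 10.8, 9.18, 12.6, 10.3 and 11.0 FPKM in compound mice, 4 of which lay above all 5XFAD mice (0.35 ± 0.117 (SE), limma adjusted p = 0.718). Kcnk1 was the other higher gene, and the lower ones were Kcnip2, Kcnab2, Kcnt2, Kcnj6, Kcng1 and Kcnmb4. In all, 24 of the 67 members lay above 0, against 49.9% of all genes. Among the markers that moved at an unadjusted p under 0.05 were 4 of 8 endothelial ones, all lower (Cldn5 -0.49, Pecam1 -0.43, Flt1 -0.36 and Kdr -0.45), 4 of 12 microglial and 2 of 11 astrocyte ones, all higher, 1 of 12 neuron and 1 of 10 interneuron markers, both higher, and Dsp of the dentate granule cells, lower by 0.71. Their part in the levels of the channel genes was not tested.

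The effect of Hdac1 loss can thus be read in separate mice, once between Hdac1 cKO and control mice and once between compound and 5XFAD mice. Of 66 members tested in both, 48 had a p of 0.05 or more in both, 9 had a smaller p only without 5XFAD and 8 only with 5XFAD. None had a limma p under 0.05 with the same sign in both, where 0.46% of all genes did. The remaining member, Kcnmb4, had opposite signs, where 0.367% of all genes did. Likewise, the effect of 5XFAD was read between 5XFAD and control mice and between compound and Hdac1 cKO mice. There 1 of 66 members (Kcnk6) had a p under 0.05 with the same sign in both, against 2.17% of all genes, and 3 (Kcnc4, Kcne3 and Kcnmb4) with opposite signs, against 0.395% of all genes.

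The interaction tests these differences between effects directly. It was a DEG for 3 of 68 members (Kcne3, Kcng1 and Kcnmb4), against 4.07% of all genes, and Kcnmb4 was not past the fold with Ttr as a covariate (-0.58). At an unadjusted p under 0.05 it was negative for 12 members and positive for 1, against 4.1% and 4.86% of all genes, and the median was -0.08 over the members and 0.00671 over all genes, with 22 of 68 members above 0 against 50.9% of all genes. The 13 members became 8 without control 4 or without 5XFAD mouse 4, and the median was -0.13 without control 4 or compound mouse 4 and -0.17 without compound mouse 5. Of the neuron markers 2 of 12 were negative at an unadjusted p under 0.05 (Camk2a -0.47 and Slc17a7 -0.36) and none positive, as was 1 of 6 CA1 markers, while 2 of 11 astrocyte, 1 of 12 microglial and 1 of 15 choroid plexus markers were positive. The median was -0.02 over the neuron, -0.26 over the CA1, 0.22 over the interneuron and 1.73 over the choroid plexus markers. Their part in the interaction of the members was not tested. Among the 12 were Kcnmb4, Kcnc4, Kcne3, Kcnab2, Kcng1, Kcnip2, Kcng2, Kcnh3, Kcnj6 and Kcnk2, and the 12 come from 10 subfamilies and code for pores, accessory and silent subunits alike. Kcne3 had the largest of these values, -1.51 ± 0.428 (SE; limma, Benjamini-Hochberg adjusted p = 0.317). No gene of the files reached an adjusted p under 0.05 for the interaction in limma, while 8.97% had an unadjusted p under 0.05.

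**Figure D4:**
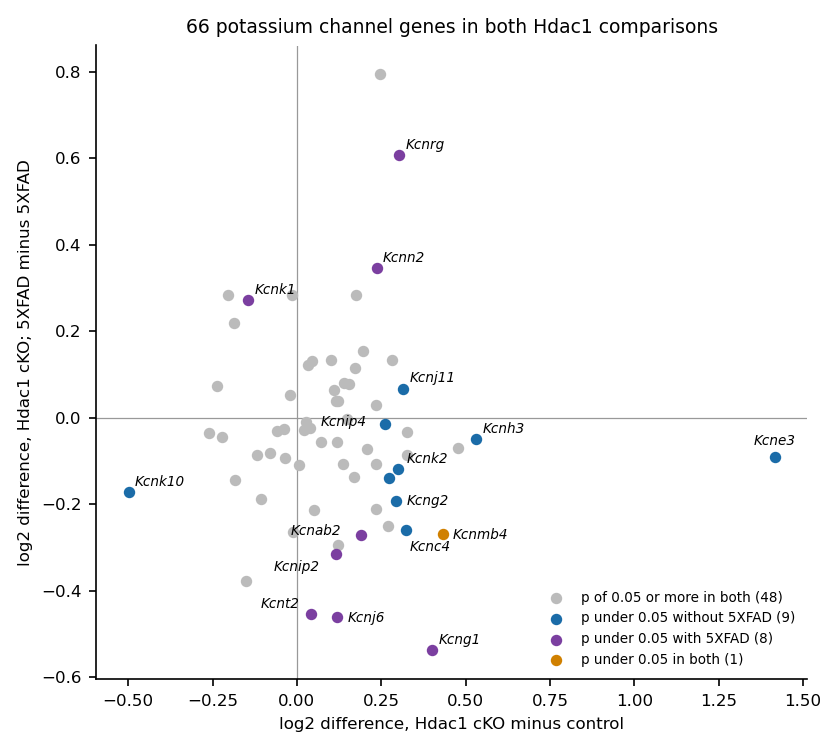
Log2 difference of each of 66 members between Hdac1 cKO and control mice (horizontal) and between compound and 5XFAD mice (vertical), on the log2(FPKM + 1) scale, with symbols by whether the limma p is under 0.05 in neither (48), the first only (9), the second only (8) or both (1, Kcnmb4). The comparisons share no mouse, and Kcnmb4 lies to the right of 0 and below 0.

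In GFAP+ nuclei 3 of 68 tested members were DEGs between Hdac1 cKO and control mice, against 2.58% of all genes, and 4 had an unadjusted p under 0.05, against 4.7% of all genes. With median scaling or quantile normalization these 4 became 7 and 8. Kcnab1 (chr3:64913306-65182145, + strand, mm9) was at 3.05, 4.71 and 3.02 FPKM in control and at 0.993, 0.580, 2.62 and 2.06 FPKM in Hdac1 cKO nuclei (-0.90 ± 0.322 (SE)). Kcnk12, which encodes a leak subunit that is silent in most assays (chr17:88145177-88197334, - strand, mm9), was at 2.65, 2.70 and 2.00 FPKM in control and at 0.0629, 1.30, 1.60 and 0.779 FPKM in Hdac1 cKO nuclei (-0.90 ± 0.325 (SE)). Kcng2 was at 1.54, 1.85 and 1.98 against 0.927, 0, 1.41 and 0.391 FPKM (-0.80 ± 0.322 (SE)). In all 3 genes the Hdac1 cKO nuclei lay below the control nuclei without overlap, but the genes were picked for a low p in these same libraries.

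Kcnn3, a small-conductance calcium-activated channel gene (chr3:89324086-89471683, + strand, mm9), went the other way, with 5.01, 4.41 and 3.89 FPKM in control and 6.25, 8.38, 5.82 and 7.36 FPKM in Hdac1 cKO nuclei (0.54 ± 0.197 (SE)). For all 4 genes the Benjamini-Hochberg adjusted p in limma was 0.984, and the exact permutation p was 0.0571, the smallest that 4 against 3 libraries allow. Each lost its unadjusted p under 0.05 without some single library: Kcnab1 without control 3 (-0.73), Kcnk12 without control 1 (-0.86), Kcng2 without Hdac1 cKO 2 (-0.58; also with the replicate block) and Kcnn3 without control 4 (0.47). Kcnn2, the most abundant gene of that subfamily, was at 37.7, 49.6 and 29.5 FPKM in control and 90.6, 48.0, 60.2 and 40.5 FPKM in Hdac1 cKO nuclei, and the groups overlapped. The median log2 difference in nuclei was -0.10 over the members and -0.00649 over all genes, and 31 of 68 members lay above 0 against 49% of all genes. That median was between -0.03 (without Hdac1 cKO 1) and -0.18 (without control 4) when 1 library was left out. Neuron markers summed to between 290 and 417 FPKM in control and between 325 and 357 FPKM in Hdac1 cKO nuclei. Markers of several cell types differed at an unadjusted p under 0.05, among them 2 of 11 astrocyte markers that were higher (Aqp4 0.53 and Aldh1l1 0.48), the neuron marker Syp, higher by 0.37, the interneuron marker Sst (-0.46), the thalamus marker Rgs16, higher by 0.95, 1 of 8 endothelial markers that was lower (Cldn5 -0.68) and 3 of 11 tested choroid plexus markers that were higher (Ttr 2.89, Calml4 1.32 and Folr1 1.04). Their part in the levels of the channel genes was not tested.

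**Figure D5:**
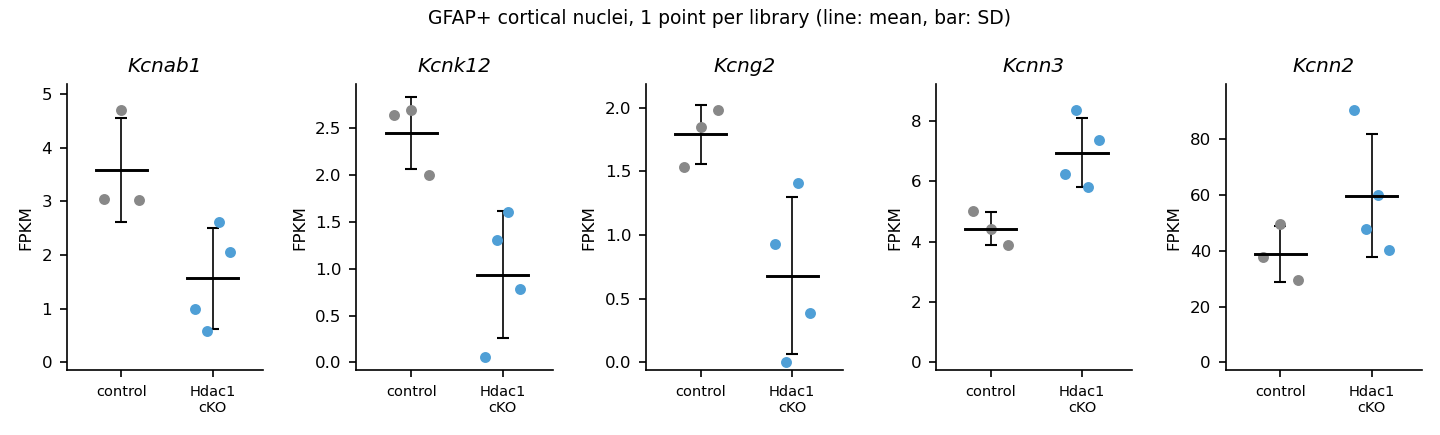
FPKM of Kcnab1, Kcnk12, Kcng2, Kcnn3 and Kcnn2 in each library of GFAP+ nuclei from control (n = 3) and Hdac1 cKO (n = 4) mice, with a line at the group mean and a bar of 1 SD. Kcnab1, Kcnk12 and Kcng2 are lower in every Hdac1 cKO library and Kcnn3 higher, while Kcnn2 overlaps and reaches 90.6 FPKM in 1 Hdac1 cKO library.

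Genes that work with these channels but carry other names were read from lists. Of 34 partners of potassium channels, such as scaffold, anchoring and sulfonylurea receptor genes, none was a DEG in any hippocampal comparison among the 31 to 32 tested, against 1.28% to 4.24% of all genes, and between 1 and 3 had an unadjusted limma p under 0.05, against 6.61% to 11.7% of all genes. In Hdac1 cKO against control mice Abcc8, the regulatory subunit of ATP-sensitive channels, was the only one with an unadjusted p under 0.05 (0.43 ± 0.160 (SE), limma, Benjamini-Hochberg adjusted p = 0.311), and Kcnj11, the pore it assembles with, was higher by 0.31 (limma adjusted p = 0.409; 0.24 and an unadjusted p above 0.05 without control 4). In the nuclei 1 of 30 tested partners was a DEG, against 2.58% of all genes, namely Dpp10, an A-type channel subunit, which was lower by 0.70 (limma adjusted p = 0.984), and Dlg1, a scaffold gene, was at -0.33 with an unadjusted p under 0.05. Of 9 tested potassium pumps and cotransporters 1 was a DEG in Hdac1 cKO mice, against 3.36% of all genes, and this was Slc12a2, which imports chloride with potassium and is abundant in choroid plexus, lower by 0.88 (limma adjusted p = 0.151), while Slc12a5, the neuronal exporter, was higher by 0.37 (limma adjusted p = 0.182). The 3 HCN genes tested had no limma p under 0.05 in any comparison.

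Of the 94 members, 89 were placed on NCBIM37, on 19 chromosomes. A further gene overlapped 18 of them, on the same strand in 6 cases.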

How the data were processed

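The deposited values are FPKM, 1 per gene and library, as the authors computed them for 20 hippocampal and 7 nuclei libraries; the hippocampal reads (3′ Digital Gene Expression) were aligned by the authors with Tophat2 and quantified with Cufflinks 2.0.0 on the UCSC annotation of mm9. Nuclei libraries were made with SMART-Seq v4, and their counter is not given in the sources used here. FPKM scales by transcript length, which overcorrects 3′ libraries when genes are compared but cancels between mice. Of 34 samples listed, 7 were not analysed here (6 ChIP-seq samples and control 2 of the GFAP+ nuclei).

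Values were analysed as log2(FPKM + 1) for genes averaging 0.5 FPKM or more in the libraries fitted, with limma 3.58.1 (trend and robust options) in R 4.3.3, using the groups compared, or all 4 hippocampal groups for the interaction, and no covariate. P-values were adjusted by Benjamini-Hochberg over all genes tested. A DEG differed 1.5-fold or more in FPKM + 1 with a p before adjustment under 0.05. The study used the same sizes on its own expression values, so the fold here is stricter for low genes. P-values measure the spread between these mice. Two-sided exact permutation tests over mice used Python 3.11.15 with numpy 2.4.6, pandas 2.3.3 and scipy 1.17.1. Whole fragments and relative depth were recovered from FPKM steps for 63 members in hippocampus and 62 in nuclei (tolerance 0.005); for the rest no fragment number is given. The fits were tested on simulated data, but no outcome of that is given and no result here rests on it. Promoters came from RefSeq (GRCm38.p6), matched by symbol or synonym for 68 members, and positions from GENCODE on NCBIM37.

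Named by rule were members past the DEG thresholds, members with a p under 0.05 and the same sign in both Hdac1 or both 5XFAD comparisons, the highest member of each subfamily, Kcnk10 and the Kcne genes. Others with a p under 0.05 were named after their values were seen. Some members are not reported here. The members and all gene lists were chosen with earlier results of these data known. Alternatives were a pseudocount of 0.1, filters at 0 and 1 FPKM, median scaling, quantile normalization, limma without trend and robust, all groups in one fit, the ratio of mean FPKM, a replicate block, each library left out and, added later, log2 Ttr as a covariate.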

Additional observations from a re-analysis of the deposited data

Results flagged for a closer look

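Among 180 groups of values, 9 held a sample far from the rest of its group, by a criterion that chance meets in about 1 group in 20. Kcne1l was at 24.7 FPKM in compound mouse 4 and at 3.93 to 8.80 FPKM in the other compound mice. Kcnk12 was at 2.59 FPKM in compound mouse 5 and at 0.313 to 0.736 FPKM in the others. In control mice, Kcnab1 was at 35.5 FPKM in mouse 3 against 48.7 to 50.3 FPKM, and Kcnk6 was at 1.95 FPKM in mouse 2 against 1.42 to 1.51 FPKM. In Hdac1 cKO nuclei, Kcne3 was at 1.67 FPKM in library 4 and listed at 0 in the others, Kcne4 was at 2.74 FPKM in library 3 against 0.201 to 0.561 FPKM, and Kcnip2 was at 8.08 FPKM in library 2 against 6.47 to 6.67 FPKM. Trace values stood apart from 0 for Kcne1 in Hdac1 cKO mouse 4 (0.0557 FPKM) and for Kcne4 in control mouse 4 (0.0925 FPKM).

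The effect of Hdac1 loss differed between mice with and without 5XFAD, by an interaction past the DEG thresholds, for Kcne3 (-1.51), Kcng1 (-0.94) and Kcnmb4 (-0.70). These are 3 of 68 members, against 4.07% of all genes. Their Benjamini-Hochberg adjusted p-values in limma were 0.317, 0.400 and 0.297, no gene had one under 0.05, and Kcnmb4 was at -0.58, below the fold, with Ttr as a covariate.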

How the results depend on the processing

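Of 1399 refits of the 66 member differences with a limma p under 0.05, 1147 kept that p, 252 did not and 0 reversed in sign. These differences were chosen for that p in largely the same libraries, so a reversal was unlikely from the start. Other differences were not in this tally. Counts of members past the DEG thresholds were small and moved with the settings. For Hdac1 cKO against control the count was 1, and it was 0 with a filter at 1 FPKM and 3 with a pseudocount of 0.1, with the ratio of means or with Ttr as covariate. For 5XFAD against control it was 1, and 2 with all groups in one fit or a replicate block and 0 with a filter at 1 FPKM. For compound against control it was 3, and 5 with a pseudocount of 0.1 or the ratio. For compound against 5XFAD it was 1, and 2 with all groups in one fit, a pseudocount of 0.1 or the block, and 3 with the ratio. For compound against Hdac1 cKO it was 3, and 6 with a pseudocount of 0.1 and 5 with the ratio. For the interaction it was 3, and 5 with median scaling, 6 with quantile normalization or a pseudocount of 0.1, and 7 with the ratio or the block. In nuclei it was 3, and 5 with median scaling, quantile normalization or the block. Members with the same sign in both 5XFAD comparisons numbered 1, and 2 without trend and robust, and 0 with Ttr as covariate, quantile normalization or the block. Except for fewer genes under the stricter filter, the cause was not tested.

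Leaving out 1 mouse gave 1 to 2 members for Hdac1 cKO against control, 0 to 2 for 5XFAD against control (0 without 5XFAD mouse 4 or 6), 2 to 5 for compound against control, 0 to 3 for compound against 5XFAD (0 without 5XFAD mouse 4 or compound mouse 2), 1 to 4 for compound against Hdac1 cKO, 3 to 7 for the interaction, 2 to 6 in nuclei, 0 to 1 for the same sign in both Hdac1 comparisons and 0 to 2 in both 5XFAD comparisons. For Kcne3 in Hdac1 cKO mice the limma adjusted p ranged from 0.0241 to 0.657 over the other settings and was 0.152 with the replicate block. Same-numbered samples did not deviate together (correlations -0.113 to 0.0778). No pairing of the mice by number was thus seen, though so few pairs cannot exclude one. In no comparison did every sample correlate best with its own number. Means below 1 FPKM rest on few fragments, Kcne3 on at most 7 per library.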
